A study of Mus musculus with 4 samples.

Results

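The cells described here are 51 keratinocyte-like cells found in single-cell RNA-seq data of 4T1 mouse mammary tumours. They were selected on measured counts, from the barcodes with at least 300 detected genes and at most 15% mitochondrial UMIs (unique molecular identifiers, each standing for 1 captured RNA molecule). Within these, a cell was chosen by 3 or more UMIs of Krt5, 3 or more UMIs of Lgals7, and under 0.5% of its UMIs in the collagen genes Col1a1, Col1a2 and Col3a1. The 51 cells are 0.159% of the 32133 cells that passed the filters (exact Clopper-Pearson 95% interval 0.118 to 0.209%). They hold 1030090 of the 354742109 UMIs of the cells that passed.

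The tumours were grown from 1000000 injected 4T1 cells, a mouse mammary carcinoma line, in the right flank of female BALB/c mice aged 6 to 8 weeks. Mice received an intravenous injection on day 7 of either PBS or TIOs, a T-cell-inspired oncolytic system made of frozen macrophages that carry upconverting nanoparticles with a photosensitizer and the GPX4 inhibitor RSL3. Near-infrared light (980 nm, 1.0 W per square cm) was then given to all groups for 5 min a day, first on day 8 and last on day 10. By the methods, CD45+ cells were sorted from the tumours, which were taken on day 13. The labels put 2 samples in PBS and 1 in TIOs+NIR, and 1 sample stayed unassigned because its title and its treatment text differ. No source used here ties the 4 libraries, read from the barcode suffixes, to these samples, so each library is a sample of unknown treatment, treatments were not compared, and there is no replicate and no p-value.

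Keratinocytes are the cells of the epidermis. Basal keratinocytes make the keratin pair of Krt5 and Krt14 and are anchored to the basement membrane by hemidesmosomes. As they leave the basal layer they switch to Krt1 and Krt10, strengthen their desmosomes and then build the cornified envelope from loricrin, filaggrin and small proline-rich proteins through transglutaminases. In wounded or inflamed skin the keratins Krt6a, Krt6b, Krt16 and Krt17 and the alarmins S100a8 and S100a9 are known to be switched on. Lgals7 encodes galectin-7, a lectin of stratified epithelia, and Krtdap a small secreted protein of differentiating keratinocytes.

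Krt5 lies on chromosome 15 (101707070 to 101712898, minus strand), Krt14 on chromosome 11 (100203162 to 100207548, minus strand), Lgals7 on chromosome 7 (28863853 to 28866284, plus strand) and Krtdap on chromosome 7 (30787896 to 30791097, plus strand), all in GRCm38 as annotated by GENCODE vM21. Krt5, one of the genes of the selection, and Krtdap, a marker that took no part in it, are shown by the 100 bases that precede their RefSeq start sites (GRCm38.p6, 5′ to 3′ on the strand of the gene, chr15:101712906-101713005 and chr7:30787805-30787904). The last few bases of the Krtdap stretch lie inside the GENCODE gene. Capitals mark the letters of an AP-1 motif and of a TATA box.
Krt5: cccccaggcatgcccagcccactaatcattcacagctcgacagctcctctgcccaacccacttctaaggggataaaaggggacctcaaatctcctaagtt
Krtdap: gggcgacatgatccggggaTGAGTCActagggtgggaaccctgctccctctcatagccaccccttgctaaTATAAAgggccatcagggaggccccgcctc

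In Krtdap the AP-1 letters begin 81 bases and the TATA letters 30 bases before the start. The Krt5 stretch holds neither in these exact letters. Variants, such as the ataaaa in its sequence, were not searched, so whether Krt5 has a TATA-like element was not tested. The search ran on both strands of 300 bases of each gene (250 before the start and 50 after it). Of 32851 such promoters, 7.81% hold the AP-1 letters TGANTCA. The TATA letters TATAAA are in 13.6% of them, and the AP-2 letters GCCNNNGGC, which are in neither window, in 16.6%. A match is a description of the letters and says nothing about binding. The AP-1 genes Fos and Jun stood at 2125 and 2609 counts per 1000000 (CPM) of the summed UMIs of the 51 cells, beside 2053 and 2306 CPM in the tumour-like cells defined below.

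All 51 cells came from library 1, where they are 0.650% of 7847 cells (0.484 to 0.854%). Libraries 2, 3 and 4 had 0 of 8614, 0 of 6783 and 0 of 8889 such cells, which allows shares of up to 0.0348%, 0.0442% and 0.0337% when 3 counts are taken as the limit, or 0.0428%, 0.0544% and 0.0415% as the upper exact bounds. Krt5 itself had 6093 UMIs in library 1, 0 in library 2, 1 in library 3 and 0 in library 4. Lgals7 was found in every library, with 29412, 315, 442 and 408 UMIs in libraries 1 to 4, and Krt14 in 2 of them, with 42871 UMIs in library 1 and 2084 in library 2. Tumour-like cells, defined below, numbered 3729, 278, 0 and 0 in libraries 1 to 4. Their absence from libraries 3 and 4 means that the lack there was not particular to the keratinocyte-like cells. The cells thus describe 1 tumour library, and what set library 1 apart was not tested. Of the barcode sequences, 101 occur in 2 libraries, and none of them belongs to the 51 cells.

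**Figure D1:**
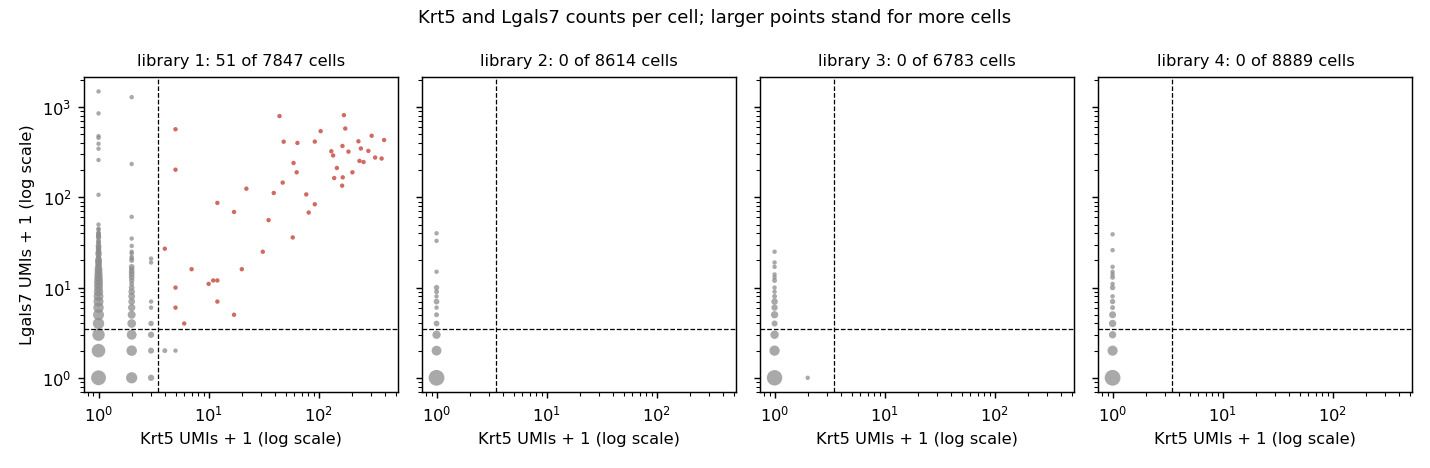
Krt5 UMIs (x axis) against Lgals7 UMIs (y axis) per cell in the 4 libraries, both plus 1 on log scales, with dashed lines at the limit of 3 UMIs. Red points are the 51 chosen cells, all in library 1, and grey points are other cells, with larger points standing for more cells.

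Within library 1 the 51 cells held 89.6% of the Krt5 UMIs, 38.8% of the Lgals7 UMIs and 32.6% of the Krt14 UMIs. A chosen cell had between 3 and 391 Krt5 UMIs (median 63), between 3 and 816 Lgals7 UMIs (median 189) and, without this having been asked for, at least 9 Krt14 UMIs. Krt5 and Lgals7 were the rule and are given as a description. The 7 cells just inside the limit, with 3 or 4 UMIs of the rarer gene, had a median of 25 Krt14 UMIs, 1 Krt8 UMI and 3 Krt18 UMIs. The 13 cells just outside it, with 2 UMIs of the rarer gene, had a median of 5 Krt14, 61 Krt8 and 128 Krt18 UMIs, and 9 of them are tumour-like cells. These 13 cells were deeper, with a median of 34097 UMIs in all against 4337 in the 7 cells just inside. No cell was lost to the collagen limit, and the highest collagen share among the 51 cells was 0.140%.

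The chosen cells had a median of 16620 UMIs (676 to 59143) and 3525 genes (472 to 7078), with a median of 1.46% mitochondrial UMIs. They were compared with 4007 tumour-like cells, which have at least 1 Epcam, 3 Krt8 and 3 Krt18 UMIs and pass the same collagen limit. Of the 51 cells 15 also reach these 3 counts and were kept out of the tumour-like cells. The median depth of the tumour-like cells was 20543 UMIs, and 3729 of them are in library 1 and 278 in library 2. UMIs were summed over each set of cells and scaled to CPM, and a gene is called higher or lower when the ratio of the 2 levels, after adding 5 CPM to each, is at least 2-fold. Of 17801 genes with at least 10 UMIs over both sets, 822 (4.62%) were higher and 1006 (5.65%) lower in the keratinocyte-like cells. Which of these counts is the larger depends on the settings, with 370 higher and 295 lower when 20 CPM were added, 600 and 375 when 2 UMIs of Krt5 and Lgals7 were the minimum, and 1463 and 2883 when cells were thinned to 2000 UMIs. Intervals on CPM are exact Poisson 95% intervals and cover counting error only, not differences between tumours.

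The name of the cells was checked against markers that the selection did not use. Trp63, the transcription factor of stratified epithelia, stood at 131 CPM (110 to 155) and was seen in 38 of 51 cells, beside 1.17 CPM in tumour-like cells. Krt14 stood at 13573 CPM (13349 to 13799) in all 51 cells, beside 306 CPM. Krtdap stood at 1638 CPM (1560 to 1718) in 41 of 51 cells, beside 16.2 CPM. Sfn (14-3-3 sigma, a cell cycle regulator) and the desmosome genes Perp and Dsp stood at 3912, 1414 and 735 CPM, beside 221, 120 and 32.9 CPM. Of the 10 genes in the keratinocyte list, 9 were higher than in tumour-like cells, 2 of them being the genes of the selection, and only Krt10 was not. At least 3 Krtdap UMIs were in 36 of the 51 cells and in 67 other cells (46, 4, 2 and 15 in libraries 1 to 4). The same count of Krt1 was in 9 of the 51 and 20 other cells, and of Trp63 in 20 and 7. After every cell was thinned to 2000 UMIs, which left out 3 shallower cells, a Krtdap UMI was left in 70.8% of the keratinocyte-like cells, 0.783% of the tumour-like cells, 3.57% of the fibroblast-like cells (at least 0.5% collagen UMIs) and 0% of the neutrophil-like cells of library 1.

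Other cell types that the tumour or the surrounding skin could hold were read by their markers. The CD45 gene Ptprc, on which the suspension was sorted by the methods, had 10 UMIs in 7 of the 51 cells (9.71 CPM, 4.66 to 17.9). It stood at 17.5 CPM in tumour-like cells and 404 CPM in the 259 neutrophil-like cells of library 1 (at least 10 UMIs of S100a8 and S100a9 together and 2 of Csf3r). Other kinds of cells were not rare despite the stated sort, with 4007 tumour-like and 3733 fibroblast-like cells among the 32133 that passed the filters. Of the neutrophil-like and tumour-like cells 39 meet both rules. The 10 leucocyte genes summed to 769 CPM, beside 905 CPM in tumour-like and 12140 CPM in neutrophil-like cells, with Lyz2 holding the most UMIs. A single cell held 50.8% of all these leucocyte UMIs, and without it and a second cell of many leucocyte UMIs the sum was 318 CPM. The endothelial list summed to 5.82 CPM with 5 of 8 genes at 0, and the melanocyte list to 2.91 CPM with 7 of 8 at 0. Myh11, the defining smooth muscle myosin of myoepithelial cells, was at 0, while Tpm2 (216 CPM, 5.96 in tumour-like cells) was the 1 gene of that list that was higher. Of 10 fibroblast genes Postn was higher and 5 were lower, or 2 against the tumour-like cells of library 1 alone. The list summed to 301 CPM beside 52976 CPM in the 183 fibroblast-like cells of library 1. The list holds the 3 collagen genes of the limit, so its collagen values describe the rules and are no check of the name. Of 7 tested Langerhans or dendritic cell genes 1 was lower (Mfge8), and of 10 T or NK cell genes 1 was higher (Trbc2). The Langerhans cell gene Cd207 was at 0, and so were Flt3 and Trac (a count of 0 allows up to 2.91 CPM).

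Basal layer genes were higher in part. Of 16 genes, 9 were higher than in tumour-like cells, Krt5 of the selection included, and none was lower, with a median log2 fold of 1.45 (-0.08 over all genes tested). Col17a1, a hemidesmosome collagen, stood at 222 CPM in 37 of 51 cells, beside 1.34 CPM, a log2 fold of 5.16. Krt15, a keratin of basal and follicle cells, stood at 180 CPM in 25 cells, beside 4.51 CPM. The laminin chains Lama3 and Lamb3 reached log2 folds of 1.92 and 1.28, but a single cell held 55.3% and 41.0% of their UMIs. Among the integrins, Itga6 was 1.62 higher on the log2 scale. Itgb4 and Itgb1 were closer to the tumour cells, at 148 CPM beside 122 and at 245 CPM beside 403.

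Most suprabasal genes were higher, but Krt10 was not. Of 12 tested genes of this list, 9 were higher and none lower, with a median log2 fold of 4.70, Lgals7 of the selection included. Dmkn (dermokine) stood at 890 CPM in 43 cells beside 5.47 CPM, Ly6d at 1468 CPM in 24 cells beside 21.8 CPM, and the serpin Serpinb5 at 452 CPM beside 23.5 CPM. Fabp5, the epidermal fatty acid binding protein, stood at 12929 CPM (12710 to 13150) in 46 cells, beside 301 CPM. Krt1 was held by 11 cells, with 394 UMIs in all (382 CPM beside 2.54), and a single cell held 33.8% of them. Krt10, its usual partner, had 22 UMIs in 15 cells, 21.4 CPM (13.4 to 32.3) beside 17.6 CPM in tumour-like cells. Krt1 and Krt10 together passed 3 UMIs in 4 of 48 cells thinned to 2000 UMIs (8.33%, 2.32 to 19.98%), and 39 cells had none.

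Of the 18 cornified envelope genes 8 were at 0 in the 51 cells. Filaggrin (Flg) had 0 UMIs, loricrin (Lor) 2 in 1 cell and involucrin (Ivl) 9 in 7 cells. Of 10 tested genes 7 were higher and none lower. Tgm3, a transglutaminase, stood at 349 CPM in 29 cells beside 0.611 CPM. Sprr1b stood at 465 CPM in 21 cells beside 4.80 CPM, and Sprr1a at 217 CPM in 8 cells, where 1 cell held 65.2% of the UMIs.

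Nearly all stress keratins and alarmins were higher. Of 15 genes 13 were higher and none lower, with a median log2 fold of 4.46. Krt17 stood at 3616 CPM in 47 cells beside 37.2 CPM, Krt6a at 2508 CPM in 43 cells beside 19.1 CPM, Krt6b at 1750 CPM in 32 cells beside 24.9 CPM, and Krt16 at 1605 CPM in 42 cells beside 111 CPM. Krt6a and Krt6b are near-identical neighbours on chromosome 15, so how reads were divided between them is uncertain. The small proline-rich genes Sprr2d and Sprr2h stood at 394 and 193 CPM, beside 3.58 and 0.965 CPM. The other two were S100a7a with 2 UMIs and the protease inhibitor Slpi, at 541 CPM beside 1018 CPM in tumour-like cells, which was lower against those of library 1 alone. Il1rn, the antagonist of the interleukin-1 receptor, stood at 95.1 beside 15.2 CPM.

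S100a8 and S100a9 stood at 4744 CPM in 43 cells and 6223 CPM in 44 cells, beside 194 and 277 CPM in tumour-like cells. Both are also the main products of neutrophils, in which they stood at 21727 and 33897 CPM in library 1. Of the 10 neutrophil genes 4 were higher than in tumour-like cells (S100a8, S100a9, Mmp9 and, with 8 UMIs, Cxcr2) and 2 lower, or none lower against the tumour-like cells of library 1 alone. Csf3r had 2 UMIs, Clec4d 0, Hdc 1, Retnlg 10 and G0s2 7 in the 51 cells, beside 509, 291, 471, 3179 and 2836 CPM in the neutrophil-like cells. The neutrophil-like cells were chosen on S100a8, S100a9 and Csf3r, so their levels of these genes are a description. Mmp9 was higher than in tumour-like cells (431 beside 87.5 CPM), but 1 cell held 75.0% of its UMIs. The cystatin (stefin) genes also include some known from neutrophils. Stfa3 stood at 7981 CPM and BC100530 at 8860 CPM, beside 24.4 and 48.8 CPM in tumour-like cells and 136 and 1041 CPM in neutrophil-like cells, while Stfa2l1, chosen after its values were seen, had 1 UMI, beside 816 CPM in neutrophil-like cells. These genes are close copies of each other, and the share of reads given to each is uncertain.

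Junction genes and skin transcription factors were mostly higher. Of 17 desmosome and tight junction genes 10 were higher and 2 lower, or 1 lower against the tumour-like cells of library 1 alone. The desmosomal cadherins of stratified epithelia, Dsc3 and Dsg3, stood at 244 and 174 CPM beside 0.547 and 0.60 CPM, and plakophilin Pkp1 at 231 beside 3.45 CPM. Dsg2, which simple epithelia share, stood at 22.3 beside 18.7 CPM, and the tight junction genes Cldn7 and Tjp1 were lower. Of 15 epidermal transcription factors 11 were higher, among them Hopx (116 beside 1.19 CPM), Zfp750 (81.5 beside 0.364 CPM), Ovol1 (176 beside 6.57 CPM) and Tfap2c (72.8 beside 0.622 CPM). Sox9 was lower (88.3 beside 253 CPM), and Gata3 stood at 103 beside 102 CPM. Skin appendage genes were seen in part, with 6 of 11 tested hair follicle genes higher and 2 lower, led by Krt17 and Krt15. Of 11 sebaceous gland genes 3 were higher, namely the lipid enzymes Scd1 (30.1 beside 7.72 CPM) and Dgat2 (19.4 beside 1.81 CPM) and Mgst1.

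Most genes of the tumour epithelium were lower. Of 12 tumour or luminal genes 8 were lower, and Cdh1, Elf3 and Esrp1, which epithelia share, were higher. Epcam, Krt8 and Krt18 chose the tumour-like cells and are a description, and of the other 9 genes 5 were lower. Krt8 stood at 427 CPM beside 2164, Krt18 at 648 beside 3146 and Wfdc2, a secreted protease inhibitor of glandular epithelia, at 443 beside 2100 CPM. In the single cells, Krt8 and Krt18 took a median of 0.0325% of the UMIs in 48 of the 51 cells, with 0.184% as the highest, and 0.428% to 0.611% in the other 3, beside a median of 0.512% in tumour-like cells. Those 3 cells had 3, 4 and 21 Krt5 UMIs. Without them the log2 fold went from -2.23 to -3.24 for Wfdc2, and 917 genes were higher and 1289 lower. Krt8 went from -2.33 to -3.43 and Krt18 from -2.27 to -3.54. The cells were set apart by these same genes, so this fall followed from the choice. With 2 UMIs of Krt5 and Lgals7 as the minimum the folds of Wfdc2, Krt8 and Krt18 were instead -1.33, -1.13 and -0.97.

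**Figure D2:**
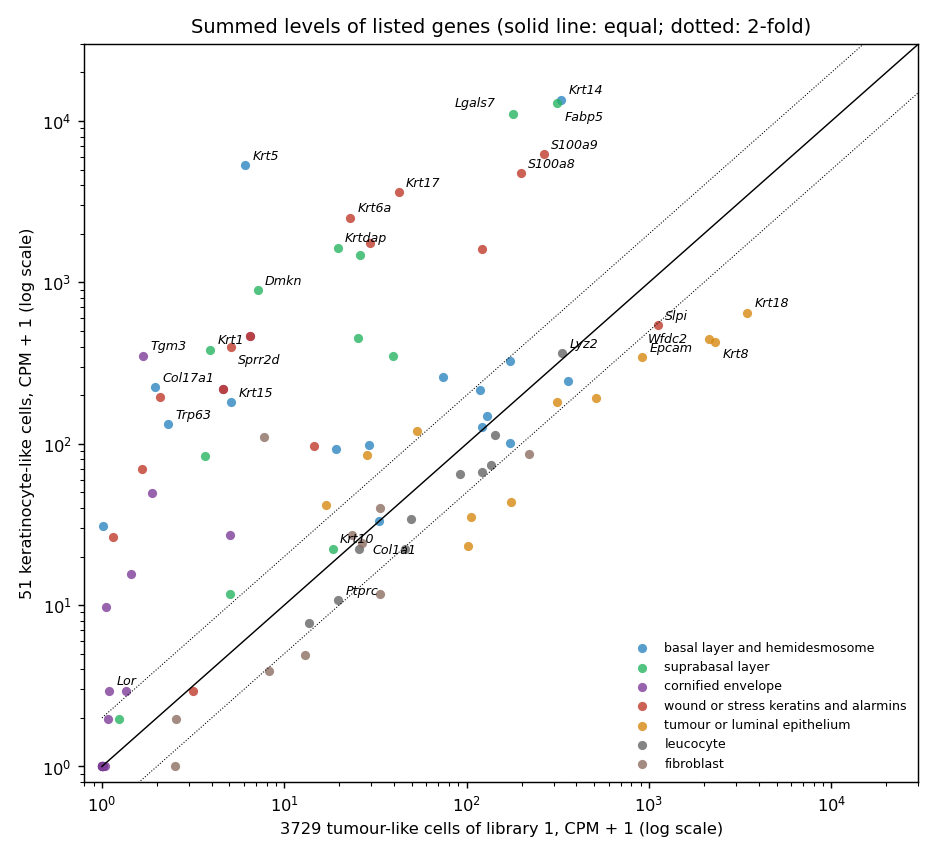
CPM plus 1 of the summed UMIs of the 51 keratinocyte-like cells (y axis) against the 3729 tumour-like cells of library 1 (x axis), both on log scales, with 1 point per gene coloured by list. Skin genes such as Krt14, Fabp5, Krt17 and Tgm3 lie above the dotted 2-fold lines, Krt8, Krt18 and Wfdc2 lie below them, and Krt10, Col1a1 and Lyz2 lie between them.

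The 20 genes with the highest fold, among genes seen in at least 25% of the 51 cells, include Krt5 and Lgals7 of the selection and 18 others. The highest after Krt5 were Stfa3 and BC100530 with log2 folds of 8.09 and 7.36, then Sprr2a3 (7.05), Krt6a (6.70), Krt17 (6.42), Dmkn (6.42), Krtdap (6.27) and the apolipoprotein Apoc1 (6.17). This order depends on 4 tumour-like cells rich in Lgals7, described further on, without which Krt6a was at 7.77, Krtdap at 7.59 and Krt17 at 6.64. The gap junction gene Gjb2 (5.70), the mitochondrial creatine kinase Ckmt1 (5.59) and Serpinb2 (5.65) were also among them. The 10 lowest included the matricellular genes Spp1 (694 beside 4010 CPM) and Fbln2 (24.3 beside 214 CPM), the mesenchymal filament Vim (696 beside 3937 CPM), the imprinted RNA H19 (16.5 beside 149 CPM) and the hypoxia gene Car9 (13.6 beside 105 CPM).

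Lists on signalling and defence were mixed. Of 23 cytokine and chemokine genes 5 were higher and 6 lower. Il33, an alarmin of barrier epithelia, stood at 246 CPM in 23 cells beside 3.29 CPM, and Cxcl14, a skin chemokine, at 118 beside 16.3 CPM. The neutrophil attractants and growth factors Cxcl1 and Csf3 were lower (213 beside 783, and 86.4 beside 333 CPM). Of 10 EGF receptor family genes and ligands 4 were higher, namely Egfr (24.3 beside 1.30 CPM), Erbb3, Ereg and Epgn. Among 9 Notch pathway genes the ligands Jag1 and Jag2 and the receptor Notch1 were higher and Rbpj was lower. Of 18 MHC and interferon genes none was higher and 3 were lower (6 against tumour-like cells of library 1 alone), with H2-D1 at 2233 beside 4313 CPM.

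The study's agent acts through lipid peroxidation, so the genes of that pathway are given although no treatment could be assigned. Of 21 tested genes 2 were higher and 5 lower. Gpx4, the peroxidase that reduces lipid peroxides, stood at 211 CPM (184 to 241) in 39 cells, beside 512 CPM in tumour-like cells, a log2 fold of -1.26, which was -0.90 when 2 UMIs of Krt5 and Lgals7 were the minimum. Acsl4, which loads polyunsaturated fatty acids into phospholipids, stood at 45.6 beside 125 CPM, and the ferritin chains Fth1 and Ftl1 at 4909 beside 13408 CPM and 834 beside 2615 CPM. Of 14 genes of gasdermins and lytic cell death 6 were higher and 2 lower. The gasdermins Gsdmc and Gsdmc2, pore-forming proteins, were seen in 11 and 20 cells at 24.3 and 34.0 CPM, beside 0.139 and 0.161 CPM, and members of this family are close copies. Pycard, the inflammasome adaptor ASC, stood at 183 beside 13.5 CPM, and Gsdmd at 8.74 beside 23.0 CPM.

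Some of the cells were cycling. Both Mki67 and Top2a were seen in 16 of 51 cells (31.4%, 19.1 to 45.9%), beside 20.7% of the tumour-like cells of library 1 and 4.25% of the neutrophil-like cells. After thinning to 2000 UMIs the shares were 10.4% (3.47 to 22.7%), 4.05% (3.44 to 4.74%) and 0%, and the first 2 intervals overlap. Of 14 cell cycle genes 1 was higher (Rrm2) and none was lower. Hspa1a, Egr1 and Dnajb1 were higher among 12 immediate early and heat shock genes.

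Within the 51 cells, Fabp5 took from 0 to 5.30% of the UMIs of a cell. This axis was chosen after the values were seen, so it is a range and not a type. In 17 cells Fabp5 was at least 1% of the UMIs (rich), in 19 cells under 0.1% (poor), and 15 cells lay between. Of the 51 cells 5 lie near the upper limit, between 0.8 and 1.2%. The rich cells were deeper, with a median of 25432 UMIs against 11108. Their mitochondrial share had a median of 1.30% and a highest value of 3.02%, against 1.88% and 11.7% in the poor cells, and the part of depth and of this share in the differences was not tested. Of 6984 genes tested between them, 527 (7.55%) were at least 2-fold higher and 974 (13.9%) at least 2-fold lower in the rich cells. With every cell thinned to 2000 UMIs the counts were 159 higher and 182 lower of 1142 genes.

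The rich cells carried the suprabasal and stress genes. Of 10 tested suprabasal genes 9 were higher, of 6 cornified envelope genes 6, and of 14 stress keratins and alarmins 13, with Fabp5, which set the ranges, and Lgals7 of the selection in the first count. With every cell thinned to 2000 UMIs, 8 of 8 tested suprabasal, 3 of 3 cornified envelope and 10 of 11 stress genes were higher, beside 13.9% of the 1142 genes tested. In UMIs per 10000 of the cell, S100a9 had a median of 83.8 in the rich cells (17.1 to 527), 24.0 in the cells between (0 to 71.2) and 0.991 in the poor cells (0 to 92.8). Krtdap had medians of 23.2 (11.4 to 84.6), 10.7 (0 to 31.4) and 2.08 (0 to 18.6) in the same order. Ly6d was seen in 17 of 17 rich, 5 of 15 intermediate and 2 of 19 poor cells. Each of these genes was higher in the typical rich cell, though the ranges of the 3 sets overlap.

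Krt1 was found in 11 of the 17 rich cells and in none of the other 34. Its 394 UMIs in the rich cells stand against 0 in the poor cells, a 99.8-fold difference if 3 UMIs are allowed over all poor cells. That ratio is no lower bound, because Krt1 came in many UMIs from few cells. Il33 was seen in 15 rich and 3 poor cells (520 beside 20.7 CPM) and Tgm3 in 16 and 3 (664 beside 17.8 CPM). Krt6b, Krt16, Sprr2d and Csta1, a cystatin of the cornified envelope, were higher by log2 folds of 6.33, 4.04, 6.38 and 5.32. Krt17, the gene of this list that also marks the hair follicle, differed less, with a log2 fold of 1.09.

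The poor cells carried more of the basal attachment genes. Of 16 basal genes 11 were lower in the rich cells and none was higher, with a median log2 fold of -1.32 (-0.19 over all genes tested). After thinning to 2000 UMIs 6 of 10 tested were lower and none was higher, beside 15.9% lower over all genes tested. Col17a1 was seen in 18 of 19 poor, 11 of 15 intermediate and 8 of 17 rich cells. Krt15 stood at 60.8 CPM in the rich and 335 CPM in the poor cells, Itgb4 at 51.8 and 213 CPM and Dst, which ties keratins to hemidesmosomes, at 40.5 and 204 CPM. Krt5 and Krt14 did not follow this order: Krt5 stood at 4961 and 3022 CPM and Krt14 at 13718 and 6942 CPM in the rich and the poor cells, and the cells between had the highest median Krt5, 85.4 per 10000 against 54.2 and 30.8. The poor cells of 59143 and 39784 UMIs, high in Krt8 and Krt18, had 3 and 21 Krt5 and 19 and 91 Krt14 UMIs. This lowers the summed levels of the poor cells. A rich cell of this kind, of 36478 UMIs, had 4 Krt5 and 198 Krt14 UMIs.

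**Figure D3:**
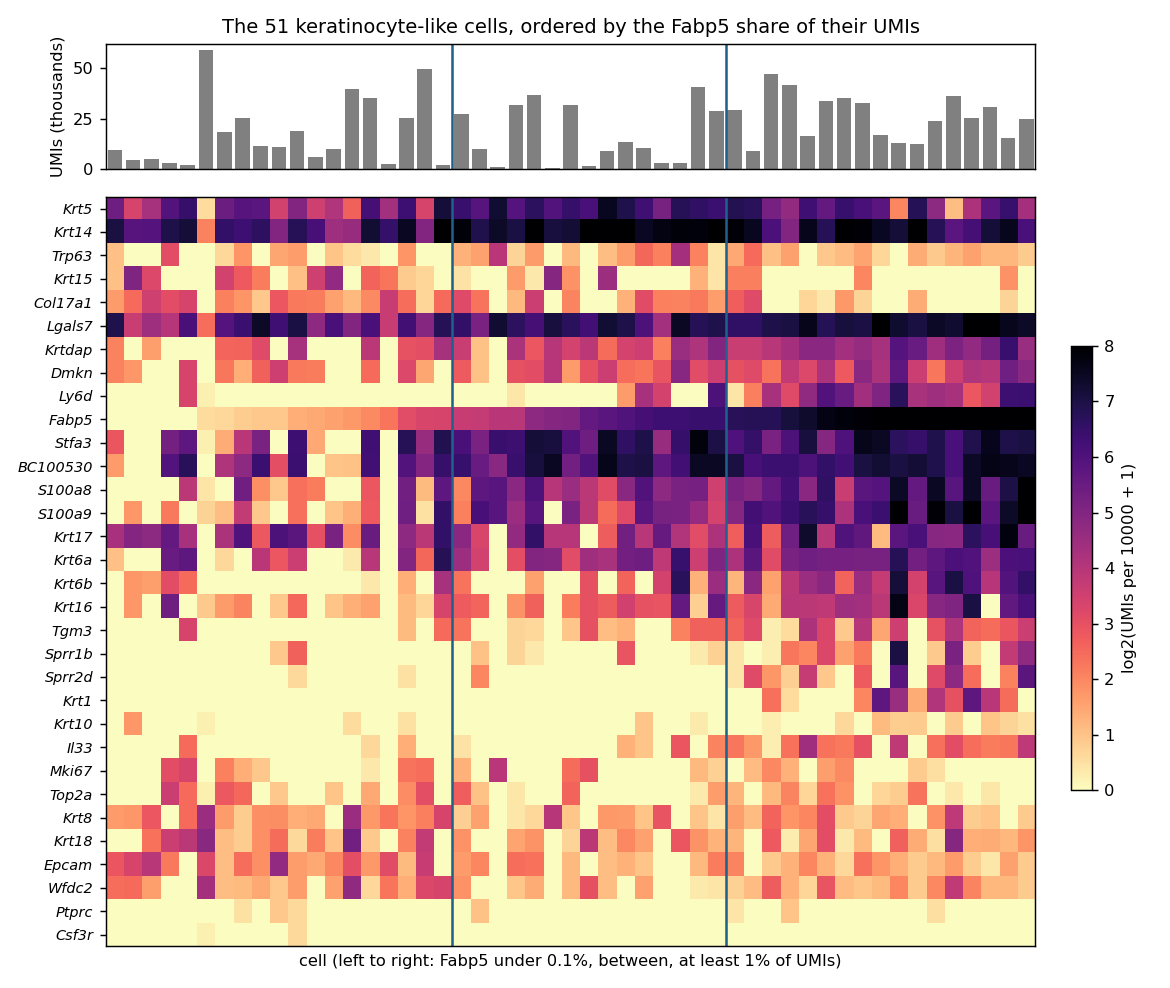
Each column is 1 of the 51 keratinocyte-like cells, ordered from left to right by the share of its UMIs in Fabp5, with its total UMIs as bars above and log2 of UMIs per 10000 plus 1 as colour below. Krt1 appears only to the right of the second blue line (17 cells with at least 1% Fabp5), Col17a1 and Krt15 are denser on the left (19 cells under 0.1%), and Ptprc and Csf3r are nearly empty throughout.

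Across the 48 cells with at least 2000 UMIs, Spearman's rho with the Fabp5 share was 0.85 for Krtdap, 0.84 for S100a9, 0.80 for S100a8, 0.77 for Ly6d, -0.57 for Col17a1, -0.43 for Krt15 and 0.16 for Krt5. These are descriptions over cells of 1 library, and the points share depth and the total in each denominator. With the depth of the cell the same genes gave 0.34, 0.22, 0.24, 0.21, -0.47, -0.14 and -0.14, and Fabp5 0.33. S100a8 with S100a9 gave 0.90 and Krt6a with Krt6b 0.81.

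**Figure D4:**
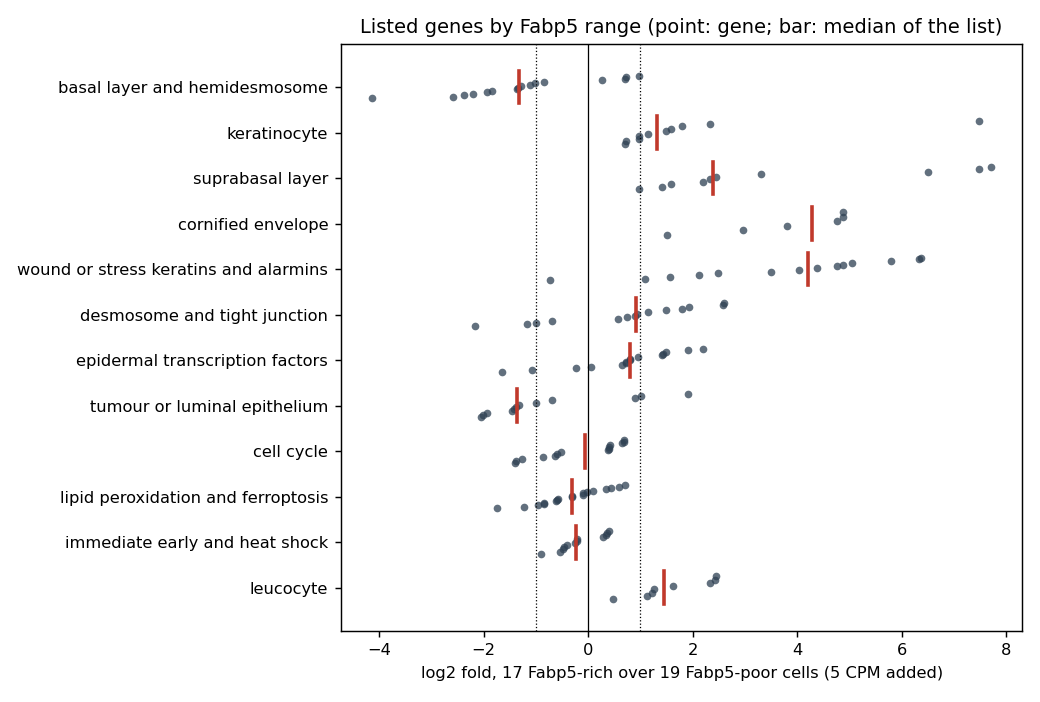
Log2 fold of the summed levels in 17 Fabp5-rich over 19 Fabp5-poor cells (x axis, 5 CPM added) for the tested genes of 12 lists, with red bars at the median of each list. The suprabasal, cornified envelope and stress lists lie mostly to the right of the 2-fold line and the basal list mostly to the left, and the leucocyte genes on the right were not called without 1 rich cell.

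Tumour and leucocyte genes moved along the same axis and belong beside it. Of 12 tumour or luminal genes 7 were lower and 2 higher in the rich cells, with Epcam at 160 CPM against 658 and Krt8 at 322 against 809. With the mean of per-cell CPM 2 of the 12 were lower and 2 higher. The Krt8 difference rests on the 3 cells of high Krt8 and Krt18, without which Krt8 stood at 231 against 239 CPM and Epcam at 155 against 595. Without these cells 3 of 10 tested tumour or luminal genes were lower and 1 higher. Of the basal genes 12 of 16 were lower, and 10 of 10 suprabasal and 12 of 14 stress genes were higher. Over all 6285 genes tested, 8.18% were higher and 12.7% lower. Of 8 leucocyte genes 7 were higher in the rich cells, and 1 rich cell held 84.2% of the Lyz2 UMIs of these cells. That cell had 0.965% of its UMIs in leucocyte genes, beside a median of 0.0330% over the 51 cells, and a second one, which is neither rich nor poor, had 0.792%. Without them, which takes 1 cell from the rich set, none of 7 tested leucocyte genes was higher. Higher were 13 of 14 stress, 10 of 10 suprabasal and 6 of 6 cornified envelope genes, beside 7.15% of the 6781 genes tested. Of 16 basal genes 9 were lower and 1 was higher, beside 14.5% lower over all genes tested.

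The selection on Krt5 left out cells with many Lgals7 UMIs and almost no Krt5. Among the other cells 10, all in library 1, had at least 100 Lgals7 UMIs and 0 or 1 Krt5 UMI. These 10 cells, picked after their values were seen, had 106 to 1496 Lgals7 UMIs and together 3391 Krt14, 6038 Fabp5, 1356 Krtdap and 7414 S100a9 UMIs. Krt1 was in 6 of them with 280 UMIs and Krt10 in 7 with 86 UMIs, which is 1590 and 488 CPM, beside 382 and 21.4 CPM in the 51 cells. Col17a1 had 1 UMI and Krt15 2, while Trp63 had 21 in 8 cells. Epcam had 42 UMIs, Krt8 26 and Krt18 37 in the 10 cells together, which are levels of 238, 148 and 210 CPM. Loricrin was at 0 in them.

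Of these 10 cells 4 met the rule for tumour-like cells through a few Krt8, Krt18 and Epcam UMIs. They alone held 78.2% of the Krtdap, 79.3% of the Krt6b, 66.1% of the Krt6a and 53.2% of the Krt1 UMIs counted in the 4007 tumour-like cells. Without them the tumour-like level of Krtdap was 3.54 in place of 16.2 CPM and that of Krt6a 6.50 in place of 19.1 CPM, so that the log2 folds of the 51 cells were 7.59 for Krtdap and 7.77 for Krt6a. Krt8 and Krt18 stood at 2167 and 3150 CPM in the remaining tumour-like cells, and 820 genes were higher and 1010 lower.

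The range in Krt1 and Krt10 itself held few cells. The 4 cells with 3 or more thinned UMIs of these genes had 86018 UMIs in all, and the 39 cells with none had 847250. Col17a1 had 0 UMIs in the 4 cells and 213 in 33 of the 39, and Krt15 had 0 and 163 in 21. Sprr1a, Cnfn and Crct1 had the highest values on the side of the 4 cells, but all their UMIs there came from 1 cell. With 4 cells no count of genes is given.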

How the data were processed

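The values deposited by the authors are UMI counts, not normalized, of 33064 barcodes over 55450 genes, made with Cell Ranger (10x Genomics), which aligned the reads, called cells and joined 4 libraries. The methods name version 3.0.2, the file header 6.1.2 and the submitters' processing notes 2.1.1 and mm10. All identifiers were found in GENCODE vM21. The barcode suffix was taken as the library, and no source links it to a sample, so no treatment was tested. The filter of 300 genes and 15% mitochondrial UMIs is that of the methods, which state 15603 cells, while 32133 barcodes passed here. Libraries had 69255999 to 108646352 UMIs.

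Counts were summed per class, scaled to CPM and compared with 5 CPM added, for genes with at least 10 UMIs (Python 3.11.15 with scipy 1.17.1, pandas 2.3.3 and numpy 2.4.6). Thinning drew 2000 UMIs per cell without replacement. The steps were tested on simulated data. The members, classes and 26 gene lists were chosen with earlier results of these data known, and the Fabp5 ranges and the cells with at least 100 Lgals7 UMIs after the values were seen. Named genes are those of the lists, the 20 highest and 10 lowest folds against tumour-like cells and the 10 highest and lowest of the Krt1 and Krt10 split, seen in at least 25% of the cells of the higher side. Genes of the Fabp5 split outside the lists, and Stfa2l1, Trbc1, Bcl11b, Mmp13 and Csta1, were chosen after their values were seen. Doublets were kept in the main values. Scrublet scores (scanpy 1.11.5) were used in an alternative. The result of 1 listed gene is not reported here.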

Additional observations from a re-analysis of the deposited data

How the results depend on the processing

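The 51 cells came from 1 library, so leaving out libraries in turn gave between 0 and 51 cells, and without library 1 no other value could be computed. Without 1 of the other libraries, 822 to 853 genes were higher and 966 to 1006 lower than in tumour-like cells, and 8.33% of cells passed the Krt1 and Krt10 limit. With 1 CPM added, 1459 were higher and 2518 lower, and with 20 CPM 370 and 295. With every cell thinned to 2000 UMIs, 1463 were higher and 2883 lower of 12473 tested. With the mean of per-cell CPM, 1250 were higher. With 2 UMIs of Krt5 and Lgals7 as the minimum, which gives 63 cells, 375 genes were lower, and Krt18 and Gpx4 fell short of 2-fold (-0.97 and -0.90 on the log2 scale). Between the Fabp5 ranges, 159 genes were higher and 182 lower of 1142 tested after thinning, and 279 and 426 with 20 CPM added. The other alternatives left these counts over all genes, and the number of cells, within 1.5 times and the Krt1 and Krt10 share (4.08 to 18.8%) within its interval. Counts within single lists moved more: between the Fabp5 ranges, 2 in place of 7 tumour or luminal genes were lower with the mean of per-cell CPM or after thinning (6 tested), and 4 in place of 7 leucocyte genes were higher with 20 CPM added or with limits of 0.5% and 0.2%, and 1 after thinning (1 tested). The log2 folds of 13 named genes kept their sign under every alternative run. Among them, Krt5 chose the 51 cells and Krt8 and Krt18 chose the tumour-like cells. The signs of these genes were largely set by the rules and are a description. The alternatives that left out the cells of high Krt8 and Krt18, of high leucocyte UMIs or of 100 Lgals7 UMIs, that used tumour-like cells of library 1 alone, and all those on the Fabp5 ranges were added after seeing the data. Of the 51 cells 2 were among the highest 5% of doublet scores in their library, 1 of them among the 2 cells of high leucocyte UMIs and none among the 3 of high Krt8 and Krt18. With 1 library, differences between tumours cannot be seen, and genes under about 3 UMIs over the 51 cells (2.91 CPM) cannot be told from 0. No paired analysis was possible because the libraries could not be tied to samples and no test was run.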

Other observations

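Trbc2, the constant segment of the T cell receptor beta chain, had 69 UMIs in 23 of the 51 keratinocyte-like cells (67.0 CPM, 52.1 to 84.8), beside 5.36 CPM in tumour-like cells and 22.3 CPM in the neutrophil-like cells of library 1. Its neighbour Trbc1 had 1 UMI, Trac 0, Cd3e 2 and Cd3g 5 UMIs. After thinning to 2000 UMIs, Trbc2 was left in 14.6% of the keratinocyte-like and 0.837% of the tumour-like cells. Bcl11b, a transcription factor of T cells and of skin, had 110 UMIs in 66.7% of the 51 cells (107 CPM beside 0.675 CPM). Both genes were noticed after their values were seen.

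Some genes with a high summed level were carried by 1 cell. Mmp13 had 318 UMIs, of which 78.6% were in 1 cell, and Mmp9 had 444 with 75.0% in 1 cell. Defb3, an antimicrobial peptide of skin, had 71 UMIs in 6 cells, all of them rich in Fabp5, with 76.1% in 1 cell. The hair follicle keratins Krt25, Krt28, Krt35, Krt73 and Krt75 were at 0, and Krt71 had 6 UMIs in 5 cells. Lhx2, a factor of the follicle, had 10 UMIs in 2 cells, 9 of them in 1 cell. Postn, an extracellular matrix protein, stood at 109 CPM in 23 of the 51 cells beside 8.80 CPM in tumour-like cells, while the collagens stood at 23.3 (Col1a1) and 38.8 CPM (Col3a1).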
